A study of Mus musculus with 6 samples.

Results

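The phagocyte NADPH oxidase is the enzyme complex with which neutrophils, monocytes and macrophages make superoxide to kill microbes. Its catalytic core is flavocytochrome b558, a membrane heterodimer that carries electrons from cytosolic NADPH to oxygen. In a resting cell the organising and regulating subunits wait in the cytosol, and on stimulation they move to the membrane together with a small GTPase of the Rac family. In marrow the complex is acquired as myeloid progenitors mature, and loss of a core or organiser subunit causes chronic granulomatous disease in people.

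The 6 genes described are Cybb and Cyba, which encode the flavocytochrome chains gp91phox and p22phox, Ncf1 and Ncf4, which encode the cytosolic subunits p47phox and p40phox, and the GTPase genes Rac1 and Rac2. They were chosen by name as subunits of the complex, not by their values, though with earlier results of these data known. They are 6 of 19938 genes measured. Each is read by 1 probe set that carries no other gene symbol.

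MN1 is a transcriptional coregulator and an oncogene of myeloid leukaemia. The MN1 group, 3 arrays, is mouse bone marrow given a murine stem cell virus (MSCV) carrying MN1 and, behind an IRES, a fluorescent reporter; the empty vector group, 3 arrays, received the same virus without MN1. Cells positive for the fluorescent reporter were sorted 72 hours later, and total RNA was read on one-colour Affymetrix whole-transcript arrays. All groups share the retroviral vector, the reporter and the sort. The sample labels call the reporter GFP, and the series description calls it YFP and speaks of 3 separate transduction experiments. Strain, age and sex of the mice and any pooling of donors are not stated in these sources, and the sort took reporter-positive marrow cells of any lineage. The p-values for group differences below set the difference against the spread between these arrays, whose number, 3 per group, limits the precision.

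Values are the authors' RMA values on the log2 scale, on which a difference of 1 is a doubling of signal. Array medians over all probe sets lay between 5.82 and 6.01, and the subunit genes read between 10.49 and 12.77, well into the bright range. For the transduced gene, Mn1 read 6.47, 6.62 and 6.08 on the MN1 arrays, against 5.34, 5.41 and 4.80 on the empty vector arrays. The direction is that of the labels, with a log2 difference of 1.20 ± 0.21 (SE) and an adjusted p of 0.584 (limma). Its MN1 arrays all lay above, beside 5.71% of all genes. Whether this mouse Mn1 probe set reads the MN1 of the vector is not stated in these sources. Apart from empty vector replicate 2, the arrays read the Y-linked gene Eif2s3y and the female-specific Xist together in graded amounts. Eif2s3y ran highest on MN1 replicates 1 and 3 and empty vector replicate 3, at 8.24 to 8.57. On MN1 replicate 2 and empty vector replicate 1 it read 7.04 and 6.72. On empty vector replicate 2 Eif2s3y was lowest at 3.43, Uty, also Y-linked, read 3.69, and Xist was highest at 10.25. Both Y-linked values there are near the dim end of the table, whose lowest value is 2.29. Results are therefore also given within the 3 arrays of highest Y-linked level and within the other 3, a split made after seeing the data. The first set holds 2 MN1 arrays and 1 empty vector array and the second 1 MN1 array and 2 empty vector arrays, so each such difference rests on a single array in one group and has no test.

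The stretches before the start sites of Cybb, Cyba and Ncf1 are shown; these are the 3 subunit genes matched by symbol in the RefSeq promoter table. They are the 120 bases upstream of an annotated start, read 5′ to 3′ on the gene's strand (RefSeq, build GRCm38.p6). Those of Ncf4, Rac1 and Rac2 were not used here. For Cybb the start used lies inside the gene's annotated span, chrX:9435252-9487766, and not at its outer end, so the Cybb letters describe that start only. Capitals mark 2 short motifs, the CCAAT box (CCAAT or, on the other strand, ATTGG) and the GC box (GGGCGG or CCGCCC), searched on both strands and added after the sequences were seen.
Cybb, chrX:9469325-9469444, minus strand: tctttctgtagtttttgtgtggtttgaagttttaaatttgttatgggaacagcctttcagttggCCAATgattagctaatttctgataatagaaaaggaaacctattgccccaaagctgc
Cyba, chr8:122432941-122433060, minus strand: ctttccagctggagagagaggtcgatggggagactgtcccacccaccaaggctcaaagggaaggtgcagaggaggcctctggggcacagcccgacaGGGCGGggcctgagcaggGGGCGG
Ncf1, chr5:134229626-134229745, minus strand: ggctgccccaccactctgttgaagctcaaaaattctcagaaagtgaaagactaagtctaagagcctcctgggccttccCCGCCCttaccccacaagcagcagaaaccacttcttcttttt

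The Cybb stretch is rich in A and T, and the 250 bases before its start were 34.0% G and C, against 60.0% for Cyba and 54.4% for Ncf1. Cybb held 1 CCAAT box, Cyba 2 GC boxes and Ncf1 1 GC box. Another motif, GAGGAA or TTCCTC on the other strand, is the core bound by PU.1, the myeloid master regulator that Spi1 encodes. It was searched in the whole window of 250 bases before to 50 after the start. It stood once, in Cybb, at bases 10 to 15 after the start used, shown here in capitals within 30 bases.
Cybb, chrX:9469298-9469327, minus strand: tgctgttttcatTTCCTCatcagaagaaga

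Of all 32851 promoter windows of this length, 28.3% held the PU.1 core, 35.7% a GC box and 37.4% a CCAAT box, so each match is a description of the letters only. Spi1 itself read 11.75, 11.72 and 11.38 with MN1, against 12.29, 11.85 and 11.38 with the empty vector. Its groups overlapped, and the log2 difference was -0.22 ± 0.24 (SE); it was named after its values were seen.

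The question put to these genes is whether they differ within days of MN1 entering marrow cells. The membrane chains read higher with MN1, by about 1.2-fold each, Ncf1 and Rac2 read lower, and Ncf4 and Rac1 hardly differed. In all, 3 of the 6 subunit genes had a positive difference and 3 a negative one. Their median was -0.02 on the log2 scale, beside -0.03 over all genes, of which 43.3% were higher and 56.7% lower. None of the 6 passed adjustment over all genes (limma, Benjamini-Hochberg, adjusted p 0.586 to 0.956), and over the whole set 0 genes were called in either direction, 0% of those tested. At an unadjusted p under 0.05 there were 0 subunit genes, beside 4.17% of all genes higher and 4.23% lower. In bulk RNA, fewer cells of a type and less RNA per cell cannot be told apart.

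**Figure D1:**
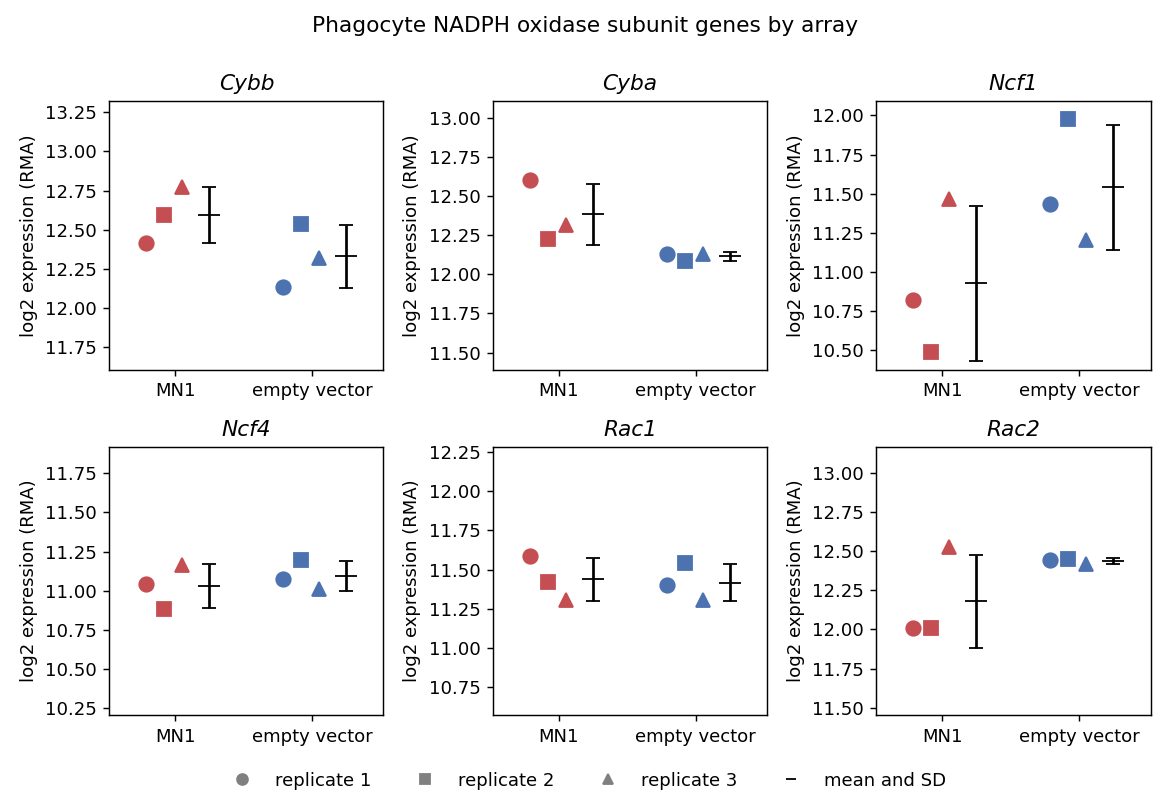
Log2 expression (vertical axes, all spanning the same width around the gene's mean) of the 6 subunit genes on the 3 MN1 and 3 empty vector arrays; marker shapes are replicate numbers and black bars the mean and SD. Cyba is the gene whose MN1 arrays all lie above its empty vector arrays, and Ncf1 has the widest spread.

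Cybb encodes gp91phox, the flavin- and haem-bearing chain through which the electrons pass. It read 12.42, 12.59 and 12.77 on the MN1 arrays, against 12.14, 12.54 and 12.32 on the empty vector arrays. MN1 replicates 2 and 3 lay above every empty vector array, and replicate 1 lay below empty vector replicate 2, so the groups overlapped. Mean levels were 12.60 ± 0.18 on MN1 arrays and 12.33 ± 0.20 on empty vector arrays (SD, n = 3 each). The log2 difference was 0.26 ± 0.15 (SE), or 1.2-fold, with a 95% interval of -0.09 to 0.62. The adjusted p was 0.608 (limma). Without empty vector replicate 1 the difference was 0.17, and it was also 0.17 without MN1 replicate 3. Cybb lies on the X chromosome, and its difference was 0.28 within the 3 arrays of highest Y-linked level and 0.26 within the other 3.

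Cyba encodes p22phox, the smaller chain, which stabilises gp91phox and gives p47phox its docking site. It read 12.60, 12.23 and 12.32 on the MN1 arrays, against 12.13, 12.08 and 12.13 on the empty vector arrays. Every MN1 array lay above every empty vector array, which held for 1 of the 6 subunit genes, beside 5.71% of all genes. The empty vector values were nearly the same, with an SD of 0.03, while the MN1 values spread more, with an SD of 0.20, and replicate 1 was the highest. The log2 difference was 0.27 ± 0.12 (SE), with an interval of -0.02 to 0.56 and an adjusted p of 0.586 (limma). Without MN1 replicate 1 the difference was 0.16, and within the 2 sets of arrays by Y-linked level it was 0.33 and 0.12.

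Ncf1 encodes p47phox, the organiser that is phosphorylated on stimulation and brings the cytosolic complex to p22phox. It read 10.82, 10.49 and 11.47 on the MN1 arrays, against 11.43, 11.98 and 11.21 on the empty vector arrays. MN1 replicates 1 and 2 lay below every empty vector array, while MN1 replicate 3 lay above 2 of them. Mean levels were 10.93 ± 0.50 on MN1 arrays and 11.54 ± 0.40 on empty vector arrays (SD, n = 3 each). The log2 difference was -0.61 ± 0.30 (SE), or 1.5-fold lower, with an interval of -1.34 to 0.11 and an adjusted p of 0.594 (limma). Ncf1 varied most of the 6 genes, with an SD over all arrays of 0.52, above that of 92.9% of genes, where the median gene had 0.19. Leaving out empty vector replicate 2 gave a difference of -0.39, and leaving out MN1 replicate 2 gave -0.40. It was -0.06 within the 3 arrays of highest Y-linked level and -1.21 within the other 3, where the only MN1 array is replicate 2.

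Ncf4 encodes p40phox, which binds the phagosomal lipid phosphatidylinositol 3-phosphate. It read 11.04, 10.89 and 11.17 on the MN1 arrays, against 11.07, 11.20 and 11.01 on the empty vector arrays. The groups overlapped throughout, and the log2 difference was -0.06 ± 0.11 (SE), with an interval of -0.33 to 0.21. Ncf4 varied little, with an SD over all arrays of 0.11, and its difference was 0.10 within the 3 arrays of highest Y-linked level and -0.25 within the other 3.

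Rac2 is the blood-cell member of the Rac GTPases and the main one of the oxidase in mouse neutrophils. It read 12.01, 12.01 and 12.52 on the MN1 arrays, against 12.44, 12.45 and 12.42 on the empty vector arrays. MN1 replicates 1 and 2 were low together, MN1 replicate 3 was the highest of all 6 arrays, and the empty vector values lay close to each other, with an SD of 0.02. The log2 difference was -0.26 ± 0.16 (SE), or 1.2-fold lower, with an interval of -0.64 to 0.12 and an adjusted p of 0.627 (limma). Without MN1 replicate 3 it was -0.43 ± 0.10 (SE), with an adjusted p of 0.732 (limma), and it was -0.17 without MN1 replicate 1 and also without MN1 replicate 2. It was -0.15 within the 3 arrays of highest Y-linked level and -0.44 within the other 3.

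Rac1 is the GTPase found in nearly all cells, which serves the oxidase in monocytes and macrophages besides its work on the actin cytoskeleton. It read 11.58, 11.42 and 11.31 on the MN1 arrays, against 11.40, 11.54 and 11.31 on the empty vector arrays. The groups overlapped fully, with a log2 difference of 0.02 ± 0.12 (SE) and an interval of -0.26 to 0.30. Its sign changed when MN1 replicate 1 or empty vector replicate 3 was left out, and within the 2 sets of arrays by Y-linked level the difference was 0.14 and -0.05.

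Whether the subunit genes differed from each other in their response was tested on the difference between 2 members within each array, for all 15 pairs; this test and the correlations that follow were added after the data were seen. With 3 arrays against 3 an exact permutation test, two-sided, cannot go below p = 0.1, and 5 pairs reached it: Cybb against Ncf1, Ncf4 and Rac2, and Cyba against Ncf4 and Rac2. After adjustment over the 15 pairs the exact permutation p of these was 0.3. A pair reaches the lowest p whenever its groups do not overlap, and the share of all gene pairs that do so was not computed. Of single genes, 5.71% had the MN1 arrays all above and 10.3% all below. The 5 pairs share genes and arrays, so their number only describes these arrays. In log2 units Cybb gained 0.88 on Ncf1, 0.33 on Ncf4 and 0.52 on Rac2 with MN1. Cyba gained 0.33 on Ncf4 and 0.53 on Rac2, and 0.88 on Ncf1, where MN1 replicate 3 fell among the empty vector arrays and the exact permutation p was 0.2. Cybb and Cyba themselves had nearly the same difference, 0.27 for Cyba and 0.26 for Cybb, with an exact permutation p of 1.

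**Figure D2:**
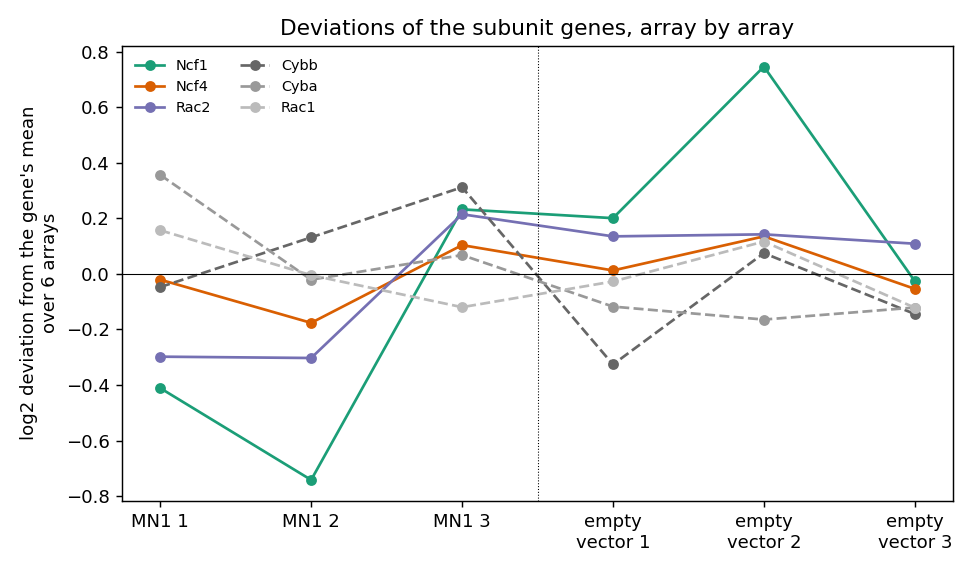
Deviation of each subunit gene from its own mean over the 6 arrays (vertical axis, log2 units), array by array; lines only join a gene's points, and the dotted line parts the MN1 arrays from the empty vector arrays. Ncf1, Ncf4 and Rac2 (solid) all lie below their means on MN1 replicates 1 and 2 and above them on MN1 replicate 3 and empty vector replicates 1 and 2.

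Across the 6 arrays the highest correlations were among Ncf1, Ncf4 and Rac2. Ncf1 and Ncf4 had a Pearson r of 0.91 (exact permutation p = 0.0208, adjusted 0.156 over 15 pairs) and a Spearman rho of 0.94 (exact permutation p = 0.0167, adjusted 0.125). Ncf1 and Rac2 had an r of 0.86 (exact permutation p = 0.0181, adjusted 0.156) and a rho of 0.94 (exact permutation p = 0.0167, adjusted 0.125). Ncf4 and Rac2 had an r of 0.73 (exact permutation p = 0.132, adjusted 0.604) and a rho of 0.89 (exact permutation p = 0.0333, adjusted 0.167). None passed the adjustment.

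The arrays farthest from the median of Ncf1 and of Ncf4 were MN1 replicate 2 and empty vector replicate 2. Without both, r was 0.61 for Ncf1 with Ncf4, 0.96 for Ncf1 with Rac2 and 0.48 for Ncf4 with Rac2. With each group's mean removed, r was 0.98, 0.77 and 0.72 for the same pairs. Ncf1 and Ncf4 ordered the arrays alike within each group. Rac2 hardly varied on the empty vector arrays, with an SD of 0.02 against 0.30 on the MN1 arrays. For the Rac2 pairs this r therefore rests mostly on the MN1 arrays, where replicate 3 alone was high, and cannot show a likeness within both groups. In the other 12 pairs r ran from -0.60, for Cyba with Rac2, to 0.41, for Cyba with Rac1. All these pairs share their arrays.

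Other genes followed single subunits closely over the 6 arrays, among 4484 genes with an SD of at least 0.3. Nearest to Cyba were Pdk2, a kinase of pyruvate dehydrogenase, Abhd12, a lysophospholipase, and Msr1, the macrophage scavenger receptor A, each with an r of 0.99. Msr1 differed by 0.99 on the log2 scale with MN1, and Pdk2 and Abhd12 by 0.55 each. Nearest to Cybb were Iqgap2, a scaffold of Rac and Cdc42, at 0.95, Asrgl1, an asparaginase-like enzyme, at 0.95 and Cbr4, a carbonyl reductase, at 0.94.

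Nearest to Ncf1 were Rasgrp4, a Ras exchange factor of mast and myeloid cells, at 0.99, Myadm, a myeloid-associated membrane protein, at 0.99 and Chst15, a sulfotransferase, at 0.98; their log2 differences were -0.75, -0.39 and -0.62. Nearest to Ncf4 were Glipr2 at 0.98, Nfil3, a transcription factor, at 0.98 and Gm5150 at 0.96. Nearest to Rac2 were Glrx, the glutaredoxin that reduces protein thiols, at 0.99, St6galnac2, a sialyltransferase, at 0.98 and 4930523C07Rik at 0.97. Nearest to Rac1 were H1f2, a linker histone, at 0.999, Stum at 0.98 and Gda, guanine deaminase, at 0.97. They were picked for this likeness over 6 arrays, and the values describe these arrays only.

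Markers of the cells that carry the oxidase were read on the same arrays. Of 15 monocyte and macrophage markers 13 were measured, 10 with higher and 3 with lower means under MN1. Their mean level was 10.91, 10.24 and 10.52 on the MN1 arrays, against 9.92, 9.57 and 10.04 on the empty vector arrays, without overlap. Cyba ordered the arrays the same way apart from empty vector replicates 1 and 3. Cybb did not: MN1 replicate 1, highest in the list, read 12.42, below the 12.54 of empty vector replicate 2, lowest in the list. The largest differences in that list were in the complement genes C1qa and C1qc of macrophages, at 1.76 ± 0.64 and 1.46 ± 0.58 (SE, log2). The 3 markers with lower means, named after their values were seen, were the monocyte genes Ccr2 at -0.10 ± 0.61, Cd14 at -0.36 ± 0.57 and Cx3cr1 at -0.38 ± 0.22, each with overlapping groups.

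The granulocyte markers leaned the other way and did not part the groups. Of 14 late granulocyte markers 12 were lower and 2 higher, with a mean level of 9.50, 9.84 and 9.67 on the MN1 arrays, against 10.73, 11.84 and 9.08 on the empty vector arrays. Empty vector replicate 2 was the highest in that list and in Ncf1, whereas MN1 replicate 3, at 9.67 in the list, was the next highest in Ncf1. Of 8 primary granule markers 7 were measured and all 7 were lower, with a mean level of 8.47 to 10.32 on the MN1 arrays and 8.84 to 11.69 on the empty vector arrays. On both lists the 3 arrays of highest Y-linked level were the 3 lowest, so that split is also one by granulocyte marker signal. With Y-linked level as a block, the primary granule median went from -1.30 to -0.44, with 6 lower and 1 higher. The late granulocyte median went from -0.99 to -0.53, with 11 lower and 3 higher. Ly6g, a neutrophil surface marker, differed by -1.83 ± 1.30, and Ms4a3, of granulocyte-monocyte progenitors, by -1.75 ± 1.10 (SE, log2). Of 11 eosinophil, mast cell and basophil markers 10 were lower and 1 higher. Their mean level was 8.19 to 9.17 on the MN1 arrays and 8.29 to 9.86 on the empty vector arrays. Their median was -0.58 on the log2 scale, and -0.24 with Y-linked level as a block. Lists of other cells stood apart, as the monocyte and macrophage list did. The mean level of 8 erythroid markers was 6.32 to 6.88 on the MN1 arrays, against 7.13 to 7.32 on the empty vector arrays. That of 10 T and NK markers was 5.32 to 5.65 on the MN1 arrays, against 5.70 to 5.92 on the empty vector arrays, both without overlap. Only 4 of the 10 T and NK markers remained with the dimmest 40% of probe sets removed, so that list rests largely on dim values. All 7 megakaryocyte and platelet markers measured had higher means with MN1 (median 0.97, log2), with mean levels that overlapped between the groups. No detection call goes with the values, so no marker could be called absent. The part of these cell types in the differences of the subunit genes was not tested.

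**Figure D3:**
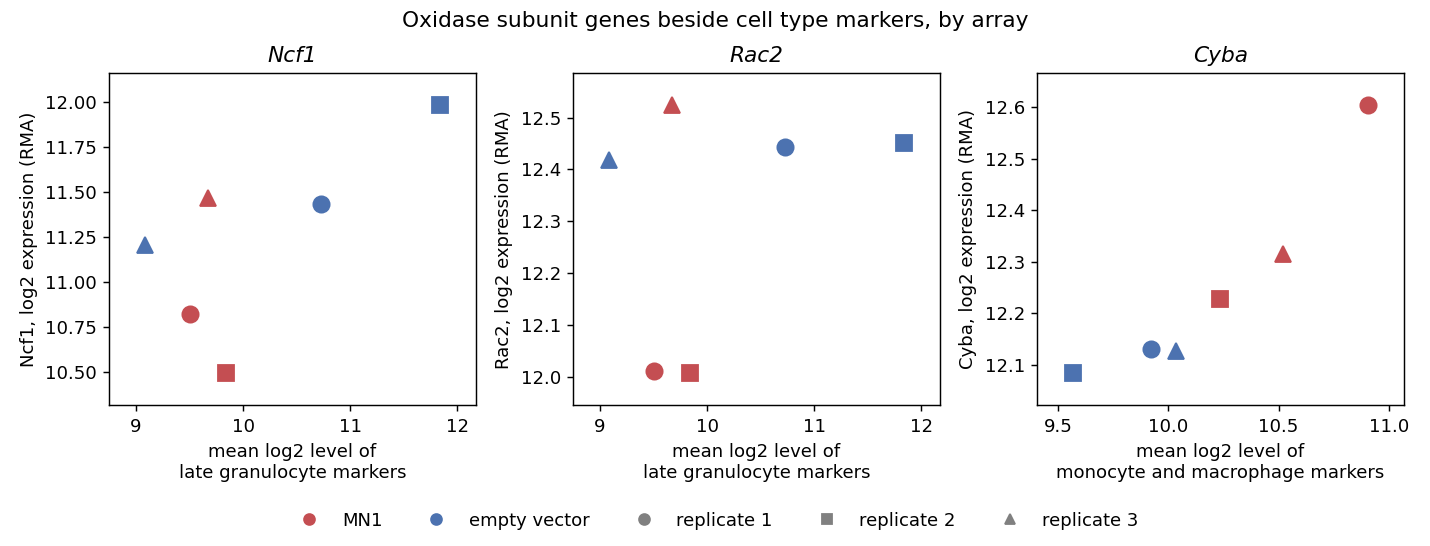
Log2 expression of Ncf1, Rac2 and Cyba (vertical axes) against the mean log2 level of late granulocyte markers (14 genes) or monocyte and macrophage markers (13 genes) on the same arrays; red is MN1, blue the empty vector, and shapes are replicate numbers. Cyba is higher on arrays with a higher mean of the monocyte and macrophage list. Rac2 is lowest on MN1 replicates 1 and 2, which read 9.50 and 9.84 on the granulocyte list, where the arrays run from 9.08 to 11.84.

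Other genes of the oxidase family were mostly dim and differed little. Of 13 listed, 12 were measured, 4 had higher and 8 had lower means with MN1 (median -0.07, log2), and none passed the test. The exceptions in brightness were Cybc1, the chaperone of the flavocytochrome, and Hvcn1, the proton channel that balances its charge. Cybc1 read 9.44, 9.50 and 9.60 with MN1, against 9.37, 9.50 and 9.16 with the empty vector. It differed by 0.17 ± 0.12 (SE, log2), in the direction of Cybb and Cyba. Hvcn1 read 10.02, 10.85 and 9.58 with MN1, against 10.47, 10.04 and 9.36 with the empty vector, and differed by 0.19 ± 0.40.

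Nox1, the catalytic homologue of colon epithelium, had the largest difference of the family. It read 4.47, 6.65 and 7.34 with MN1, against 5.10, 4.59 and 5.67 with the empty vector, so MN1 replicates 2 and 3 stood above and replicate 1 below all empty vector arrays. The log2 difference was 1.04 ± 0.73 (SE); it was 1.88 when MN1 replicate 1 was left out and 0.44 when MN1 replicate 3 was. The 3 MN1 arrays lay below all empty vector arrays for 2 of the 12 genes, beside 10.3% of all genes. These were Rac3, the neural Rac gene, at -0.26 ± 0.11, and Noxa1, the activator that serves Nox1, at -0.19 ± 0.10. The other differences were 0.06 for Nox4, -0.03 for Duoxa2, -0.05 for Nox3, -0.10 for the organiser homologue Noxo1, -0.11 for Duoxa1, -0.11 for Duox2 and -0.17 for Duox1, at levels of 3.77 to 6.58.

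**Figure D4:**
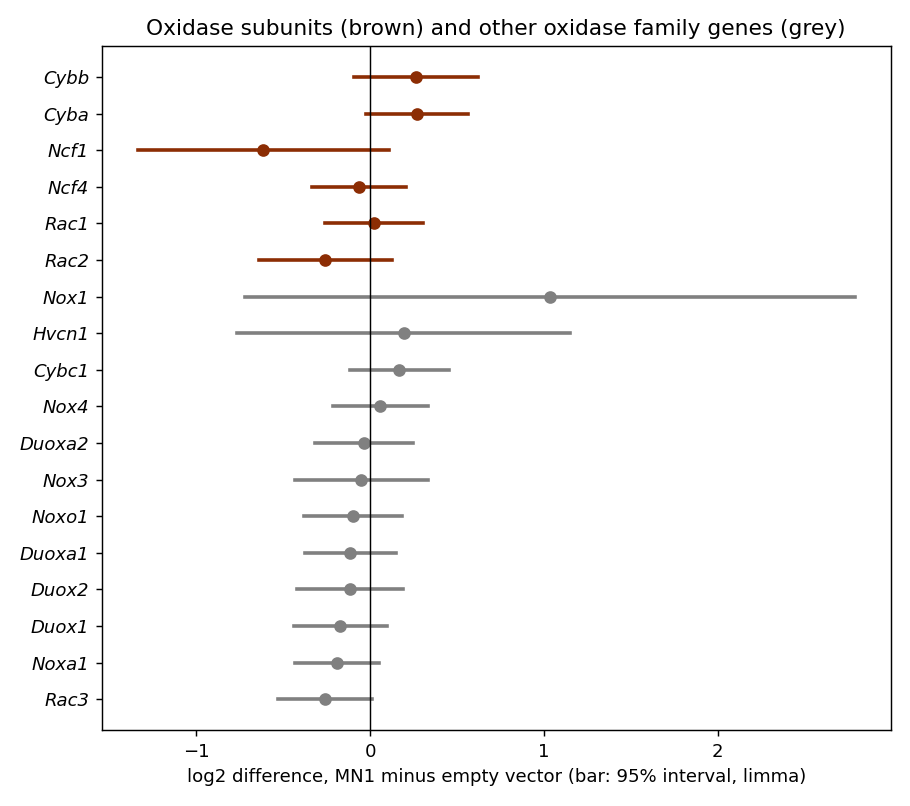
Log2 difference, MN1 minus empty vector (horizontal axis), for the 6 subunit genes (brown) and 12 other oxidase family genes (grey), with 95% intervals from limma. Every interval drawn includes 0, and that of Nox1 is the widest.

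Among genes that control Rac and switch the oxidase on, 23 of 28 listed were measured; 8 had higher and 15 had lower means with MN1 (median -0.14, log2), and none passed adjustment. Groups did not overlap for 5 of them, 3 with the MN1 arrays above and 2 with them below, beside 5.71% and 10.3% of all genes. Tiam1, a Rac exchange factor, read 9.18, 9.58 and 9.10 with MN1, against 10.38, 10.27 and 9.90 with the empty vector, and differed by -0.90 ± 0.18 (SE, log2). Vav3, an exchange factor downstream of integrin and Fc receptors, read 8.77, 8.23 and 8.49 with MN1, against 7.99, 7.78 and 7.82 with the empty vector, and was higher by 0.63 ± 0.16. Both had an adjusted p of 0.584 (limma).

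The other 3 genes without overlap were named after their values were seen. Vav2, a paralogue of Vav3, was higher by 0.21 ± 0.09 (SE, log2), and Pla2g4a, the cytosolic phospholipase that frees arachidonic acid, by 0.52 ± 0.20. Prkcz, an atypical protein kinase C, differed by -0.25 ± 0.10. The calgranulin genes S100a8 and S100a9, whose proteins bring arachidonic acid to the oxidase, differed by -1.32 ± 0.63 and -1.06 ± 0.63 with overlapping groups. Both S100a8 and S100a9 are also late granulocyte markers here.

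Of 17 transcription factors described at oxidase subunit genes, 16 were measured, 10 with higher and 6 with lower means (median 0.11, log2). Satb1, a chromatin organiser, differed by -1.07 ± 0.46 (SE), Meis1, a Hox cofactor, by 0.94 ± 0.34, Cebpe, of granule maturation, by -0.79 ± 0.58 and Irf8, of monocyte fate, by 0.37 ± 0.28. Leaving out 1 array gave -1.48 to -0.24 for Cebpe, the smaller of these without empty vector replicate 2 and the larger without empty vector replicate 3, and 0.14 to 0.67 for Irf8, the lower without MN1 replicate 1 and the higher without MN1 replicate 2. Meis1 alone of the 16 had groups that did not overlap, with its MN1 arrays above, beside 5.71% of all genes. Cebpe read 6.85, 6.98 and 7.16 with MN1, against 8.05, 8.91 and 6.42 with the empty vector, high on the 2 empty vector arrays with the most granulocyte marker signal.

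Enzymes that remove superoxide and peroxide were split evenly: of 22 measured of 24, 11 had higher and 11 had lower means (median 0.02, log2). Prdx4, the peroxiredoxin of the endoplasmic reticulum, read 8.99, 8.66 and 8.48 with MN1, against 8.08, 7.88 and 8.24 with the empty vector, and was higher by 0.64 ± 0.16 (SE). It was the 1 gene of the 22 with its MN1 arrays all above, beside 5.71% of all genes. Prdx1 differed by 0.55 ± 0.31, the quinone reductase gene Nqo1 by -0.55 ± 0.34 and the secreted peroxidase gene Gpx3 by 0.53 ± 0.38. Of 9 genes that supply NADPH 8 were measured, all but G6pdx. Of the 8, 7 had lower means and 1 a higher one (median -0.28, log2), beside 56.7% of all genes lower. Leaving out empty vector replicate 2 gave a median of -0.14, and leaving out MN1 replicate 1 gave -0.18. With the Y-linked block, 5 were lower and 3 higher, and the median was -0.18. Malic enzyme (Me1) differed by -0.49 ± 0.35, NAD kinase (Nadk) by -0.41 ± 0.27, 6-phosphogluconate dehydrogenase (Pgd) by -0.38 ± 0.22 and transaldolase (Taldo1) by -0.29 ± 0.14. Taldo1 was the 1 gene of the 8 with its MN1 arrays all below, beside 10.3% of all genes. None of the genes in these lists passed adjustment over all genes (limma).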

How the data were processed

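RNA of 3 MN1 and 3 empty vector samples was read on one-colour arrays, from 200 ng of total RNA per the labels' protocols. The deposited values are log2 expression per probe set, for which the submitters' processing notes name RMA; its version and the set of arrays it was run on are not stated there. RMA draws dim values together and so understates their differences. All 6 columns were used and 0 left out. Of 35557 probe sets, 21789 carry 1 symbol (platform annotation of 2016); the brightest per gene was kept, giving 19938 genes. The test was limma 3.58.1 in R 4.3.3 (lmFit, eBayes, two-sided, Benjamini-Hochberg over all genes, threshold 0.05), with no block; the SE is the moderated one and intervals are 95%. No dim filter was applied.

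Members and lists were chosen with earlier results of these data known. Of 190 list entries 170 were measured. Named were the subunits, Mn1, the oxidase family, up to 4 genes per list with the largest difference, and 3 genes per subunit with the highest Pearson r. The other marker lists (eosinophil, mast cell and basophil; dendritic; B; T and NK; erythroid; megakaryocyte) had medians of -0.58, 0.14, 0.45, -0.33, -0.52 and 0.97 on the log2 scale. The fit and the permutation tests were tested on simulated data. Alternatives were the replicate block, median-centring, quantile normalization, removal of the dimmest 40%, averaging of each gene's probe sets, all probe sets, a trended robust prior, array weights and each array left out. A block of Y-linked level was added after seeing the data.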

Additional observations from a re-analysis of the deposited data

How the results depend on the processing

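Across 15 settings beside the reported one, limma called 0 genes in either direction, where 832 genes were higher and 843 lower at an unadjusted p under 0.05 with all arrays. Cybb, Cyba, Ncf1 and Rac2 kept their direction in each setting, and none of the 6 subunit genes passed. The adjusted p ran from 0.514 to 0.935 for Cybb, 0.507 to 0.935 for Cyba, 0.511 to 0.935 for Ncf1 and 0.564 to 0.935 for Rac2. Leaving out 1 array at a time gave 0.17 to 0.37 for Cybb, 0.16 to 0.35 for Cyba, -0.88 to -0.39 for Ncf1, -0.43 to -0.17 for Rac2, -0.1297 to 0.0102 for Ncf4 and -0.0514 to 0.087 for Rac1. The last 2 changed sign, Ncf4 without MN1 replicate 2, and Rac1 without MN1 replicate 1 or empty vector replicate 3 (-0.0338). Each subunit has 1 probe set, so averaging probe sets left its difference as it was.

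The groups share replicate numbers, and the series description speaks of separate transduction experiments. The deviations of same-numbered arrays correlated at 0.13, 0.075 and 0.324. MN1 replicate 2 correlated best with empty vector replicate 1 (0.437), while MN1 replicates 1 and 3 correlated best with their own number. These values do not settle whether same-numbered arrays are pairs, so the fit is given without a block and with one. With the replicate block the differences stayed the same and the adjusted p was 0.514 for Cybb, 0.507 for Cyba and 0.554 for Ncf1, with 0 genes called by limma (1140 higher and 840 lower at an unadjusted p under 0.05). The smallest adjusted p over all genes ran from 0.0989 without MN1 replicate 1 to 0.935 without empty vector replicate 2. Median-centring left 977 genes higher and 400 lower at an unadjusted p under 0.05. Other named genes that changed sign when 1 array was left out ranged from -0.45 to 0.0041 (Spi1), -0.128 to 0.0533 (Duoxa2), -0.1555 to 0.4802 (Hvcn1), -0.1833 to 0.0549 (Nox3), -0.0254 to 0.1154 (Nox4), -0.5315 to 0.1182 (Nfil3), -0.6342 to 0.0844 (Gm5150), -0.2345 to 0.3721 (H1f2), -0.0513 to 0.3038 (Stum) and -0.2034 to 1.0434 (Gda). Quantile normalization gave 0.0049 for Duoxa2 and -0.009 for H1f2, array weights gave -0.0048 for H1f2, and the block of Y-linked level gave 0.0457 for Nox3 and 0.1154 for Elane, a primary granule protease gene. Of the 62 other named genes 52 kept their sign with each array left out, and 38 of these moved by over 1.5 times in at least 1 such fit, as did Cybb, Cyba, Ncf1 and Rac2. Over the same fits the list medians ran -1.77 to -0.22 (late granulocyte), -2.54 to -0.53 (primary granule), 0.62 to 1.07 (monocyte and macrophage), 0.55 to 1.39 (megakaryocyte and platelet), -0.71 to -0.40 (erythroid), -0.35 to -0.21 (T and NK), -0.66 to -0.36 (eosinophil, mast cell and basophil), -0.20 to -0.04 (regulators), -0.39 to -0.14 (NADPH supply), -0.05 to 0.10 (detoxification), -0.16 to -0.03 (oxidase family), -0.01 to 0.20 (transcription factors), 0.04 to 0.87 (B lineage) and -0.0034 to 0.43 (dendritic). The B lineage median was -0.18 with the Y-linked block and -0.23 with the dimmest 40% removed. The cause of these changes was not tested. Settings that removed the dimmest 40% left out some dim oxidase family genes.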
